A study of Saccharomyces cerevisiae with 6 samples.

Results

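The GAL regulon is the set of genes with which budding yeast takes up and breaks down galactose, together with the switch that controls them. It was represented here by 10 genes chosen by name. GAL1, GAL7, GAL10, GAL2 and PGM2 encode the enzymes and the transporter of galactose use. GAL3, GAL4 and GAL80 encode the switch, and GCY1 and PCL10 are other targets of the activator Gal4. Of these 10, 9 had a named probe set, 1 each, among the 5449 genes of Saccharomyces cerevisiae that the annotation names on the array. GAL4 had none and was not analysed here, so the switch is described by GAL3 and GAL80 alone.

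All cells were haploids of mating type a from the W303-1A background. All carried the nutritional marker alleles ura3-1, his3-11,15, trp1-1 and ade2-1, a mutant allele of LEU2, and can1-100 at the arginine permease gene. Each strain held a centromeric pRS413 plasmid on which the GAL1 promoter drives YRA1, which encodes an RNA-binding factor of mRNA export. In the GAL-YRA1 cells, titled WT in the labels, the plasmid gene keeps its intron, and in the GAL-YRA1Δi cells it is intron-less and YRA1 is overexpressed. In minimal medium, both groups were moved from raffinose to 2% galactose for 4 hours, with 3 biological replicates each. No array came from raffinose or from cells without a GAL1-driven YRA1, so neither the induction by galactose nor the effect of the plasmid promoter itself can be read from these levels.

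In the textbook account of the pathway, Gal2 brings galactose into the cell, and the kinase Gal1, the transferase Gal7 and the epimerase Gal10 turn it into glucose-1-phosphate. The phosphoglucomutase Pgm2 passes that on to glycolysis. Gal4 binds upstream of these genes, and Gal80 masks its activating region until Gal3, a relative of Gal1 that senses galactose, pulls Gal80 away. Gal3 and Gal80 are themselves made from Gal4-driven genes, which gives the switch its feedback. GCY1 encodes a reductase of glycerol metabolism and PCL10 a cyclin that directs the kinase Pho85 to glycogen synthase.

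Values below are log2 RMA signals, which measure hybridisation to a probe set and cannot be ranked between genes. RMA sets all arrays to alike distributions, so a general rise or fall of the transcriptome leaves no trace in them. Over all 5498 probe sets tested the median signal was 11.16 to 11.18 on the 6 arrays. The array also holds 1747 named probe sets outside the S. cerevisiae gene table, taken here as those of the fission yeast Schizosaccharomyces pombe. The 95th percentile of their mean signals was 4.70. The mating type a markers MFA1, MFA2, STE2 and AGA2 lay at 12.32 to 14.09. BAR1, also an a marker, lay below that percentile at 3.14 to 3.47, although no bar1 allele is given in the genotype. The 4 alpha markers lay at 6.35 to 10.48.

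GAL1, GAL7, GAL10 and GAL2 gave signals close to the top of the scale in both groups and differed little between them. GAL1 signal was 14.77, 14.75 and 14.72 in GAL-YRA1 replicates 1, 2 and 3, and 14.70, 14.63 and 14.70 in the GAL-YRA1Δi replicates. The 3 GAL-YRA1Δi arrays all lay below the GAL-YRA1 arrays, but the step between the groups was as small as the steps within them. The RNA came from whole cultures, so fewer cells with the transcript and less of it per cell cannot be told apart. The change, given throughout as GAL-YRA1Δi minus GAL-YRA1, was -0.07 (SE 0.06, 95% confidence interval -0.21 to 0.07; limma adjusted p = 0.669).

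GAL7, whose product moves the uridyl group between sugars, had the most even GAL-YRA1 values of the regulon. Its signal was 14.66 on all 3 GAL-YRA1 arrays and 14.64, 14.55 and 14.62 on the GAL-YRA1Δi arrays, with no overlap. The change was -0.06 (interval -0.20 to 0.08; limma adjusted p = 0.710).

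GAL10, the epimerase gene, was the only measured member without a negative change. Its signal was 14.62, 14.65 and 14.61 in GAL-YRA1 cells and 14.64, 14.59 and 14.66 in GAL-YRA1Δi cells, and the groups overlapped. The change was 0.0083 (interval -0.13 to 0.15; limma adjusted p = 0.962), and leaving out replicate 3 of either group turned its sign. In the reference annotation an antisense RNA, YNCB0008W, is listed next to both GAL10 and GAL1. The strand that the probes read is not given in the sources used here.

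GAL2, the galactose transporter gene, had 14.67, 14.58 and 14.65 in GAL-YRA1 cells against 14.57, 14.44 and 14.57 in GAL-YRA1Δi cells. The groups did not overlap, by a margin far below their spread, and replicate 2 was the lowest array in each group. The change was -0.10 (interval -0.27 to 0.06; limma adjusted p = 0.545). Without GAL-YRA1Δi replicate 2 the changes of GAL1, GAL7 and GAL2 were -0.044, -0.032 and -0.06.

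These 4 genes lay 0.33 to 0.66 below the highest value of their arrays, which was 15.08 to 15.12, and whether differences are compressed there was not tested. Among the 235 tested probe sets with a mean signal of 14 or more, the median size of the change was 0.04 and the 95th percentile 0.14. In the 899 probe sets with a mean from 12 to 13 these were 0.10 and 0.35. A log2 change of -0.07 at the signal of GAL1 therefore stands for a different share of the spread than the same value at the signal of GAL3.

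**Figure D1:**
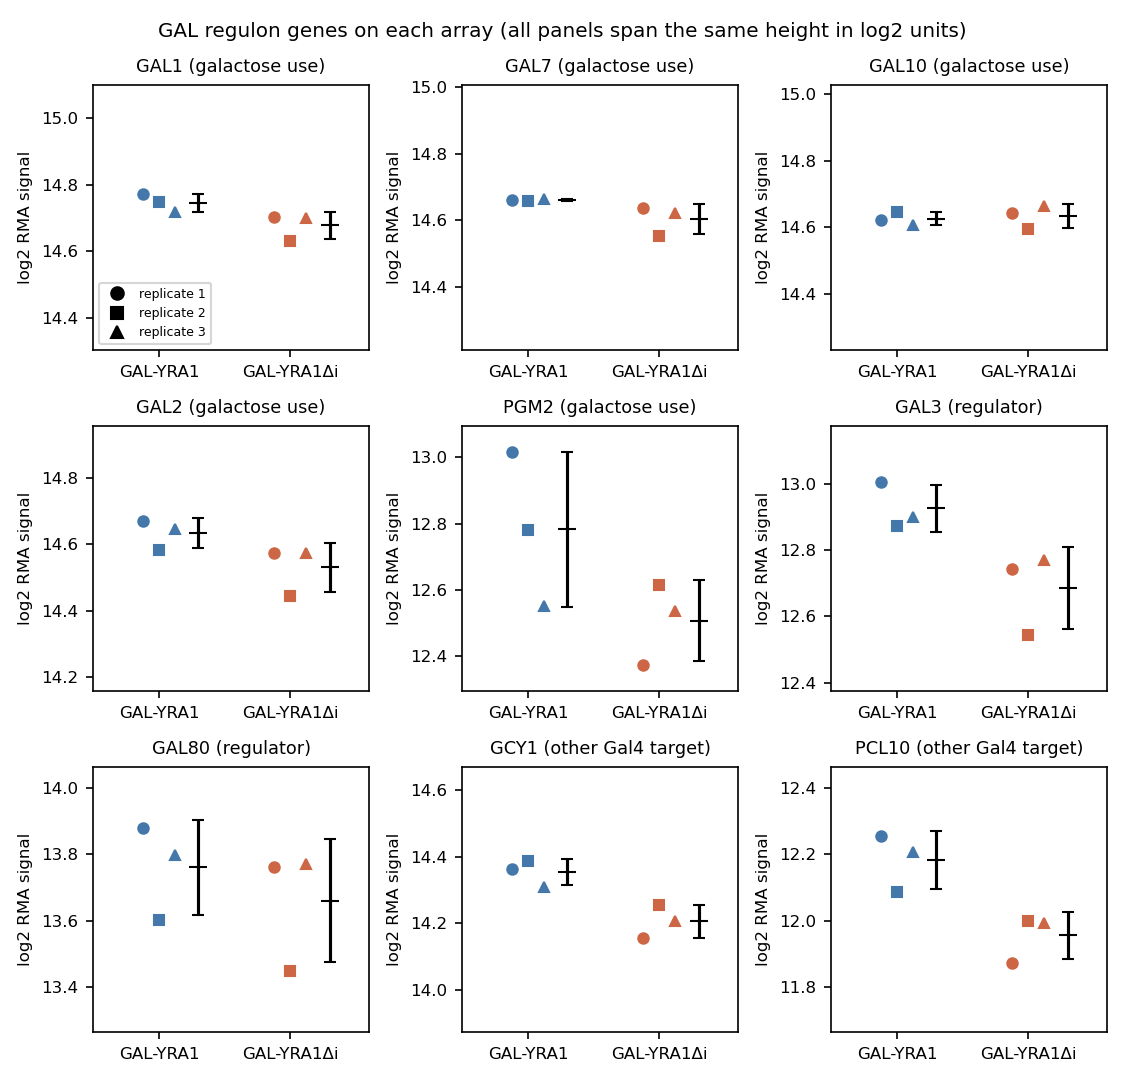
Log2 RMA signal of the 9 measured genes on each array, with replicates 1 to 3 as circles, squares and triangles and the group mean ± SD (n = 3) in black beside them. The panels have the same height, so PGM2, GAL3 and GAL80 can be seen to spread more widely than GAL1, GAL7 and GAL10, and GAL3, GCY1 and PCL10 show GAL-YRA1Δi arrays that all lie below the GAL-YRA1 arrays.

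PGM2, the last step of galactose use, had the widest spread between replicates of the 9 genes. It had 13.02, 12.78 and 12.55 in GAL-YRA1 cells and 12.37, 12.61 and 12.54 in GAL-YRA1Δi cells. Only replicate 1 parted the groups widely, with a change of -0.64 in pair 1, -0.17 in pair 2 and -0.015 in pair 3. The change over the groups was -0.27 (SE 0.13, interval -0.60 to 0.05; limma adjusted p = 0.381). Without GAL-YRA1 replicate 1 it was -0.16. PGM1, which encodes another phosphoglucomutase and is not a member of the regulon, differed by -0.11 with no overlap between groups (limma adjusted p = 0.411).

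GAL3, the galactose sensor, had the most negative mean change of the measured switch genes. Its signal was 13.01, 12.87 and 12.90 in GAL-YRA1 cells and 12.74, 12.54 and 12.77 in GAL-YRA1Δi cells. The groups did not overlap, with means of 12.93 ± 0.07 (SD, n = 3) and 12.69 ± 0.12 (SD, n = 3). The change was -0.24 (SE 0.09, interval -0.45 to -0.03), or 0.847-fold, and the limma p was 0.0303 before and 0.256 after adjustment over all 5498 probe sets.

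GAL80, the repressor, differed less and overlapped. It had 13.88, 13.60 and 13.80 in GAL-YRA1 cells and 13.76, 13.45 and 13.77 in GAL-YRA1Δi cells. The replicate 2 array was the lowest of each group, and the change between groups was -0.10 (SE 0.12, interval -0.39 to 0.19; limma adjusted p = 0.762). Without GAL-YRA1Δi replicate 2 it was 0.0065.

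Since Gal3 acts by binding Gal80, the signals of both genes were also set against each other within each array, a comparison chosen after their values were seen. GAL3 minus GAL80 was -0.87, -0.73 and -0.90 on the GAL-YRA1 arrays and -1.02, -0.91 and -1.001 on the GAL-YRA1Δi arrays, so the groups did not overlap. The difference of -0.14 had an exact permutation p of 0.10 (two-sided, 3 arrays against 3), which is the smallest p that this design allows. The level of this ratio has no meaning between 2 probe sets, and only its difference between groups can be read.

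The 2 targets outside galactose breakdown lay lower on every GAL-YRA1Δi array. GCY1 had 14.36, 14.39 and 14.31 in GAL-YRA1 cells and 14.16, 14.26 and 14.21 in GAL-YRA1Δi cells. The change was -0.15 (SE 0.06, interval -0.30 to 0.0023) and the limma adjusted p was 0.317. Its close relative YPR1, another reductase gene, differed by -0.16 with overlapping groups (limma adjusted p = 0.474).

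PCL10 had 12.25, 12.09 and 12.21 in GAL-YRA1 cells and 11.87, 11.9996 and 11.99 in GAL-YRA1Δi cells. The groups did not overlap, although GAL-YRA1 replicate 2 lay close to the GAL-YRA1Δi arrays. The change was -0.23 (SE 0.08, interval -0.41 to -0.04), or 0.855-fold, with a limma p of 0.0225 before and 0.230 after adjustment. With arrays weighted by their quality the adjusted p was 0.0350 at a change far under 1.5-fold, and over all alternatives it ranged from 0.0350 to 0.629. Its relative PCL8, also a Pho85 cyclin gene, differed by 0.09 (limma adjusted p = 0.812).

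**Figure D2:**
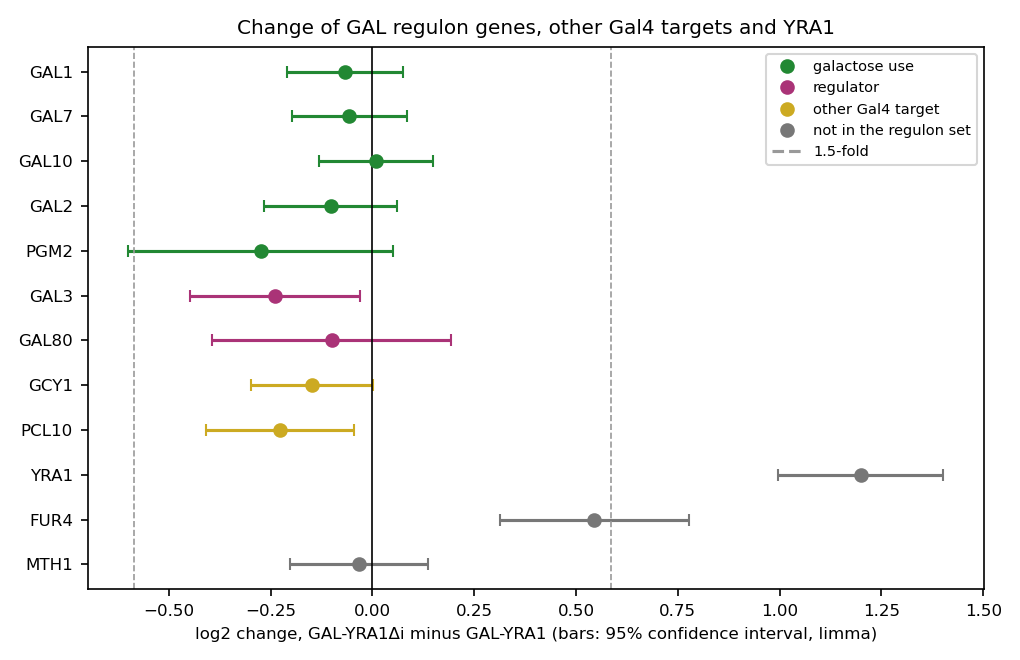
Log2 change (GAL-YRA1Δi minus GAL-YRA1) with its 95% confidence interval from limma for the 9 measured genes, for YRA1 and for the further Gal4 targets FUR4 and MTH1. The dashed lines mark 1.5-fold, and 8 of the 9 regulon intervals lie inside them, while YRA1 lies outside at 1.20.

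None of the 9 genes was called. The strict threshold, that of the study's methods, takes a gene that differs 1.5-fold or more with its adjusted p under 0.01, and 0% of all probe sets met it in limma. A looser threshold kept the fold and took adjusted p under 0.05, and it called 0 of the 9 beside 0.4% of all probe sets. With replicate number as a block the looser threshold called 0 of 9 beside 1.44%, and the lowest adjusted p of the 9 was 0.118. At an unadjusted limma p below 0.05, 2 of the 9 were lower, GAL3 and PCL10, and 0 higher, beside 6.31% of all probe sets lower and 9.79% higher. The study's supplementary list of up- and down-regulated genes is wider than the strict threshold gives here. It holds YRA1, FUR4 (below 1.5-fold) and YHL012W, genes taken up below.

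The size of any change is bounded more closely than a count of 0 tells. The 95% confidence interval lay within 1.5-fold in either direction for 8 of the 9 genes, as for 79.2% of all probe sets, and the exception was PGM2, whose interval reached 0.660-fold. For GAL1 it ran from 0.864- to 1.05-fold, for GAL3 from 0.733- to 0.978-fold and for PCL10 from 0.753- to 0.970-fold. For the genes near the top of the scale the interval holds for the signal, not for an amount of RNA.

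The sign of the changes was nearly the same across the regulon. The change was negative for 8 of the 9 genes, with a median of -0.10, beside 47.6% of all probe sets and a median of 0.0091 over all of them. The groups did not overlap and the GAL-YRA1Δi arrays were lower for 6 of the 9 (GAL1, GAL7, GAL2, GAL3, GCY1 and PCL10), beside 8.57% of all probe sets, and the opposite held for 0 of the 9 beside 13.6%. Within each pair of equal replicate number the GAL-YRA1Δi array was lower in all 3 pairs for 8 of the 9, beside 23.3% of all probe sets. For the 6 genes without overlap this follows from the non-overlap. Only PGM2 and GAL80 add to it, with changes of -0.015 and -0.025 in pair 3. The genes share arrays, an activator and, for 5 of them, a signal near the top of the scale. They therefore do not count as 9 separate observations, and no test of the set was made.

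**Figure D3:**
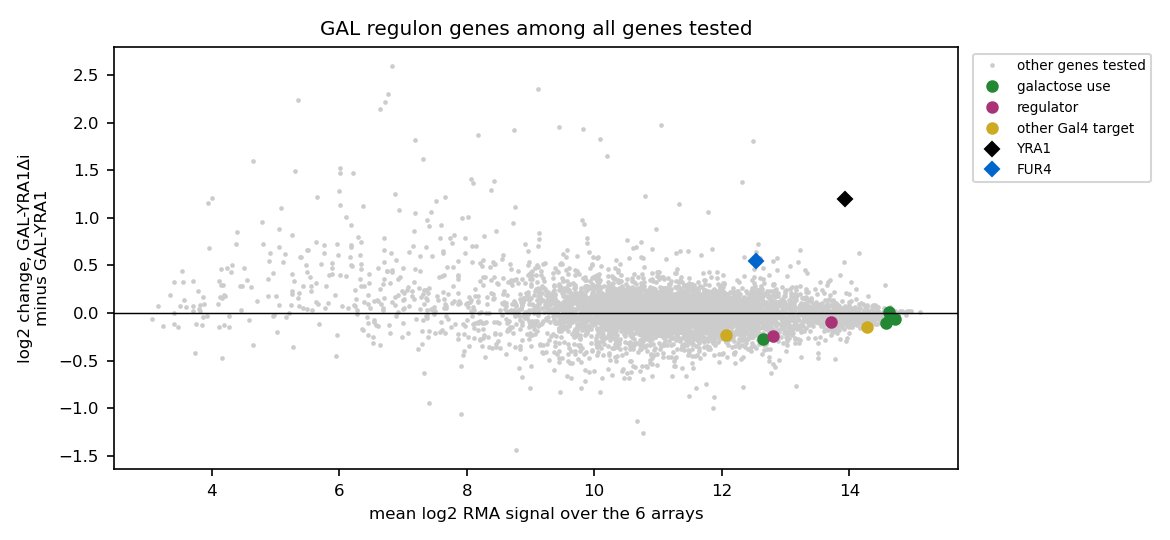
Change between groups (log2, GAL-YRA1Δi minus GAL-YRA1) against mean log2 RMA signal for all genes tested, with the regulon genes in colour and YRA1 and FUR4 as diamonds. The regulon genes lie between -0.27 and 0.0083 within the cloud, at 12.07 or more on the signal axis, and the cloud narrows towards the top of the scale.

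Structural, regulatory and other target genes were then taken apart. The median change was -0.07 over the 5 genes of galactose use, -0.17 over the 2 measured switch genes and -0.19 over GCY1 and PCL10. The first 4 genes of galactose use and GCY1 lie in the range of signal where changes were smallest. These medians therefore cannot be compared as effects. The pooled within-group SD was 0.03 for GAL1, GAL7 and GAL10, 0.06 for GAL2 and 0.05 for GCY1, against 0.19 for PGM2 and 0.16 for GAL80, and the median over all probe sets was 0.13.

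Replicate 2 stood apart for some of the genes. It was the lowest array of both groups for GAL7, GAL2, GAL3 and GAL80, 4 of the 9, as for 32.4% of all probe sets. In GAL80 it lay 0.16 below the GAL-YRA1 mean and 0.21 below the GAL-YRA1Δi mean. In GAL3 it lay 0.05 and 0.14 below. PGM2 and GCY1 did not share this, and in PCL10 replicate 2 was lowest in GAL-YRA1 cells and highest in GAL-YRA1Δi cells. Over the 9 genes the median change was -0.12, -0.13 and -0.04 in pairs 1, 2 and 3, and over the groups it was -0.10, -0.06 without GAL-YRA1Δi replicate 2 and -0.08 without both replicate 2 arrays.

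**Figure D4:**
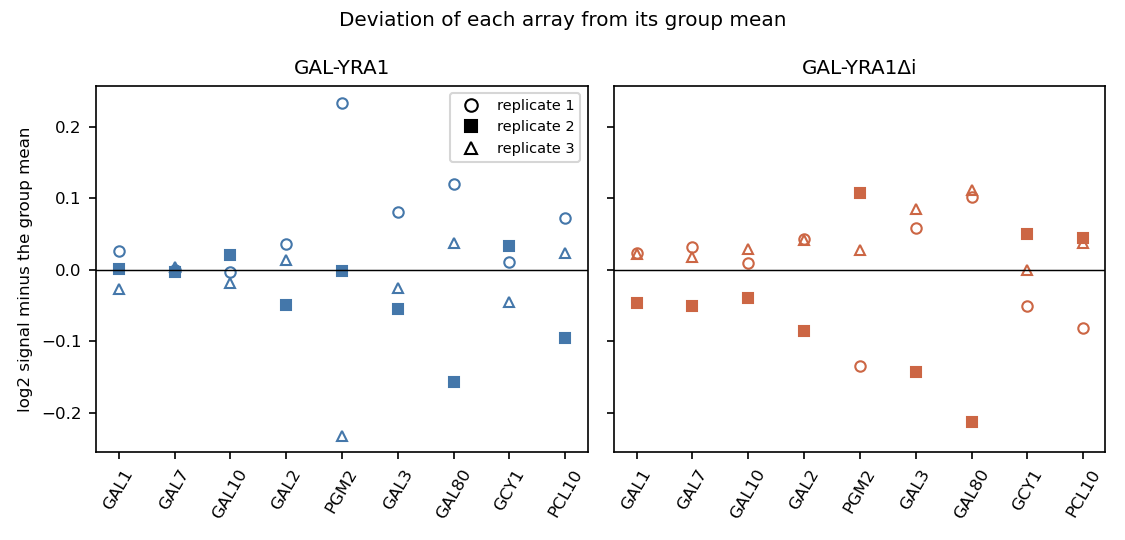
Log2 signal of each array minus its group mean for the 9 measured genes, with GAL-YRA1 on the left, GAL-YRA1Δi on the right and replicate 2 as filled squares. For GAL3 and GAL80 the replicate 2 arrays are the lowest in both groups, while the widest deviations of PGM2 belong to replicates 1 and 3 in GAL-YRA1 cells.

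The plasmid copy of YRA1 is driven by the GAL1 promoter in both groups, so its signal was set against that of the chromosomal genes which use the same activator. YRA1 minus the mean of GAL1, GAL7 and GAL10 was -1.33, -1.47 and -1.22 on the GAL-YRA1 arrays and -0.18, 0.03 and -0.16 on the GAL-YRA1Δi arrays. The 3 arrays of each group lay far from the other group, and the difference was 1.24 (exact permutation p = 0.10, two-sided, the smallest that 3 against 3 allows). The groups were made to differ in YRA1, so this separation was set by the design and its p is no separate support. YRA1 alone differed by 1.20 (limma adjusted p = 0.0102, and 0.0802 to 0.112 when replicate 1 or 3 of either group was dropped). In signal nearly all of the 1.24 lay in YRA1, since GAL1, GAL7 and GAL10 changed by -0.07, -0.06 and 0.0083. These 3 genes lay 0.33 to 0.55 below the top of the scale, so how the difference divides in amounts of RNA cannot be told. The YRA1 probe set reads the chromosomal and the plasmid gene together, and in GAL-YRA1Δi cells it too came within 0.48 of the top of the scale.

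FUR4 and MTH1 are further genes at which Gal4 has been found to bind, and their changes lay on opposite sides of 0. FUR4 encodes the uracil permease and is the gene next to GAL1. Its signal was 12.41, 12.16 and 12.23 in GAL-YRA1 cells and 12.73, 12.94 and 12.77 in GAL-YRA1Δi cells, with no overlap. The change was 0.54 (SE 0.10, interval 0.31 to 0.78), or 1.46-fold, opposite in sign to its neighbour GAL1. It did not pass over all probe sets (limma adjusted p = 0.0817, or 0.0664 as paired replicates). Over the alternatives its adjusted p ran from 0.00844 to 0.332.

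MTH1, a corepressor of hexose transporter genes, had 12.66, 12.59 and 12.62 in GAL-YRA1 cells and 12.57, 12.52 and 12.69 in GAL-YRA1Δi cells. The groups overlapped, and the change was -0.03 (interval -0.20 to 0.14; limma adjusted p = 0.867). KAP104, which lies on the other side of the GAL cluster next to GAL7 and encodes a nuclear import receptor, differed by 0.12 (limma adjusted p = 0.554). Over the 13 measured neighbours of the regulon genes 0 were called at either threshold by limma, and 1 (FUR4) had an unadjusted p below 0.05, beside 16.1% of all probe sets in either direction. Their changes ran from -0.31 for AIM32, next to GAL80, to 0.54 for FUR4, with a median of -0.05. Of the 13, 10 were negative, beside 47.6% of all probe sets. AIM32 (limma adjusted p = 0.416) overlapped between groups, and the profilin gene PFY1, next to GCY1, differed by -0.12 with no overlap (limma adjusted p = 0.373).

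Genes of glucose repression and the coactivators of Gal4 were examined as the control layer above the regulon. Of 20 measured genes of glucose repression 0 were called at either threshold by limma, and 3 had an unadjusted p below 0.05, each higher in GAL-YRA1Δi cells. That is 3 of 20 in either direction, near the 16.1% of all probe sets. These 3 were STD1, ELM1 and TOS3. Over the 20 the change was positive for 13, beside 52.4% of all probe sets, and the median was 0.016. STD1, a regulator related to MTH1, differed by 0.52 with no overlap (limma adjusted p = 0.197), and the Snf1-activating kinase genes ELM1 and TOS3 by 0.26 each (limma adjusted p = 0.211 and 0.242). Without both replicate 2 arrays STD1 passed the looser threshold (0.60, limma adjusted p = 0.0158). That setting was chosen after the data were seen, and it called 231 of all 5498 probe sets, against 22 in the main fit. MIG1, the repressor that shuts GAL genes in glucose, differed by 0.11.

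Among the coactivators and turnover factors, 0 of 26 measured genes were called at either threshold by limma. At an unadjusted p below 0.05 GAL11 and SNF5 were higher and LAP3 lower, 3 of 26 and no larger a share than the 16.1% of all probe sets. Over the 26 the median was 0.034 with 18 positive, beside the 52.4% of all. GAL11, the subunit of Mediator that Gal4 contacts, differed by 0.27 with no overlap between groups (limma adjusted p = 0.220). SNF5 of the SWI/SNF remodeller differed by 0.21 and LAP3, a protease gene also known as GAL6, by -0.17 (limma adjusted p = 0.262 and 0.271).

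The list built around enzymes that handle glucose-1-phosphate and UDP-glucose, where galactose breakdown joins sugar storage, held the only call. At the looser threshold 1 of 9 genes was called, beside 0.4% of all probe sets, and it was lower. This was YHL012W, a gene of unknown function related to the UDP-glucose pyrophosphorylase gene UGP1. It had 7.91, 7.81 and 7.92 in GAL-YRA1 cells and 6.92, 6.96 and 6.91 in GAL-YRA1Δi cells, a change of -0.95 or 0.518-fold (limma adjusted p = 0.0102, with 0.000441 to 0.112 over the alternatives). Its adjusted p exceeded the threshold when any of 4 arrays was dropped, namely replicates 1 (0.0989) and 3 (0.0925) of GAL-YRA1 and replicates 1 (0.109) and 3 (0.112) of GAL-YRA1Δi.

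UGP1 itself differed by 0.06 with overlapping groups (limma adjusted p = 0.813). The glycogenin gene GLG2 differed by -0.40 with no overlap (limma adjusted p = 0.141, or 0.0480 with the replicate block, at 0.759-fold), and the phosphoribomutase gene PRM15, also known as PGM3, by 0.27 (adjusted p = 0.216). The median over the 9 genes was -0.26, and 7 were negative, beside 47.6% of all probe sets.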

How the data were processed

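The authors deposited 1 table of log2 values for 10928 probe sets on 6 Affymetrix Yeast Genome 2.0 arrays, made by RMA per the methods. Versions are not given in the sources used here. The platform annotation, updated through the RefSeq table of the R64 assembly, named 5498 probe sets of 5449 S. cerevisiae genes, 1 of them the brightest where a gene had several. All were tested, with no filter on dim ones. No coordinates are given, since the table names no build.

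The comparison used limma 3.58.1 (R 4.3.3) over all 5498 probe sets with Benjamini-Hochberg adjustment and group as the only term. The fit was tried on simulated data with independent noise on each array. That simulation held no replicate effect, so it does not show how the fit behaves with one. Alternatives were a replicate block, other normalizations, a filter on dim probe sets, all probe sets, other variance models, array weights and each array left out. The labels give both groups replicate numbers 1 to 3. These were taken as pairs for the replicate block and for the changes within pairs. Between arrays numbered 1, 2 and 3 the deviations from the group means had r = 0.34, 0.69 and 0.30 over probe sets. Within a group the deviations balance out, so these r values are not separate. Arrays of unlike number were not compared, so the r values do not show that the pairing is right. The number of arrays limits the precision.

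The members, the lists and the tests were chosen with earlier results of these data known. The genes named are the members, YRA1, FUR4, MTH1, relatives of members, the 3 lowest-p genes of each list and those closest to the GAL profile, with MIG1, UGP1 and KAP104, which were added after their values were seen.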

Additional observations from a re-analysis of the deposited data

How the results depend on the processing

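None of the 9 genes was called at the methods' threshold under any alternative, and their median change stayed between -0.15 and -0.06, with those as the lowest and highest values when 1 array was left out. Leaving out both replicate 2 arrays, an alternative chosen after the data were seen, lowered the difference of YRA1 minus the GAL genes from 1.24 to 1.11, and it was 1.17 to 1.30 with 1 array left out. A replicate block cannot move a difference of group means in this balanced design, so the 1.24 it returned says nothing about robustness. With the block the count of called members was also 0, so it changed no call on a member. Of the genes around the regulon 0 passed the methods' threshold. With dim probe sets left out, with all probe sets tested, with array weights and without both replicate 2 arrays 1 passed, YHL012W, and with 1 array left out the count was 0 to 1. Over all probe sets the looser threshold called 22, against 79 with the block, 217 with array weights, 115 without GAL-YRA1Δi replicate 2 and 231 without both replicate 2 arrays, and 0 when replicate 1 or 3 of either group was left out, always with 0 of the 9 genes. The signs that turned belonged to differences near 0. GAL10 ran from -0.0065 to 0.028 with 1 array left out and was -0.00092 without GAL-YRA1 replicate 3, and GAL80 ran from -0.18 to 0.0065. MTH1 was 0.0063 with array weights and ran from -0.081 to 0.0027, and PCL8 ran from -0.026 to 0.20. The cause was not tested. Each of the 9 genes has 1 probe set, so averaging probe sets changed nothing. Whether signals near the top of the scale hide differences of GAL1, GAL7, GAL10, GAL2 and GCY1 was not tested.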

Other observations

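The array also carries S. pombe probe sets named gal1, gal7 and gal10. Their signals were 3.35 to 3.57, 4.28 to 4.77 and 3.33 to 3.96 over the 6 arrays, close to or below the 95th percentile of 4.70 for S. pombe probe sets, in cells where the S. cerevisiae genes of these names gave 14.55 or more.

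The mean profile of GAL1, GAL2, GAL7 and GAL10 over the 6 arrays ran from 14.56 in GAL-YRA1Δi replicate 2 to 14.68 in GAL-YRA1 replicate 1. Among 5224 other genes with at least the same spread, those most like it were BNA4 (r = 0.99), GSC2 (r = 0.99), DCR2 (r = 0.98), RPL15B (r = 0.97) and YGK3 (r = 0.97). Of the other regulon genes GAL3 had r = 0.96, GAL80 0.84, PCL10 0.53, GCY1 0.42 and PGM2 0.39. These are descriptions over 6 arrays that share group and replicate, picked as the highest of many, and the profile spans little of the scale.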
